A study of Mus musculus with 6 samples.

Results

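The genes described here carry the cyclic AMP (cAMP) signal in TM3 cells, from the luteinizing hormone receptor to the enzymes that degrade cAMP. They are 44 named genes, of the 23462 genes that the array's probes could be matched to. Each was found through the RefSeq accession of its probes, and the 44 genes hold 82 probes. The list was set by pathway, with earlier results of these data already known.

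TM3 is a line of mouse testicular somatic cells that is widely used as a Leydig cell model, a Leydig cell being the androgen-producing cell of the testis. The control group was 3 samples of male-derived TM3 cells kept for 24 h at 0 µM 4-nitrophenol (PNP, nPNP in the labels), with the treatment given as none and no vehicle named. The PNP group was 3 samples of the same line after 24 h at 10 µM. PNP is a breakdown product of parathion-type insecticides and a constituent of diesel exhaust. Total RNA of each sample was hybridised to its own 1-colour Agilent array. All 6 samples came from 1 line, and nothing in the labels says whether replicates were separate cultures, so the p-values rest on sample-to-sample spread that could be purely technical.

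In a Leydig cell, luteinizing hormone binds its receptor, and a stimulatory G protein switches on adenylyl cyclases that make cAMP. cAMP releases the catalytic subunits of protein kinase A (PKA) from their regulatory subunits, and PKA then phosphorylates transcription factors of the CREB family and proteins of cholesterol transport. Inhibitory G proteins, phosphodiesterases and feedback regulators hold the signal down. This route is the main acute drive on androgen synthesis in Leydig cells.

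All arrays were on 1 slide and had 1 scan, with the controls and PNP array 1 in slide row 1 and PNP arrays 2 and 3 in row 2. Between 59.9% and 62.6% of non-control spots were well above background, and no spot was saturated. Spots marked as outliers made up 6.53% to 9.07% of the control arrays and 11.5% to 13.2% of the PNP arrays. Of the Leydig cell markers, Star and Nr5a1 were above background on all 6 arrays (2 of 6 on the array), Cyp17a1 on 5 and Hsd3b1 on 1. Cyp11a1, which starts steroid synthesis, and Lhcgr were above it on none. Markers of other testis cells were also above background on all arrays, for 4 of 4 peritubular myoid, 4 of 6 Sertoli, 3 of 5 macrophage, 2 of 6 germ and 0 of 4 endothelial cell genes.

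Transcripts of the pathway were detected from the G proteins and cyclases downward, and the receptor was not detected. Of the 44 members, 30 (68.2%) had a probe above background on all 6 arrays, beside 62.5% of all genes (14661 of 23462). Another 10 were above background on no array, 22.7% beside 30.2% of all genes: Lhcgr, Gnai1, Adcy2, Adcy3, Adcy4, Adcy8, Adcy10, Pde3a, Pde7b and Rapgef4. Rgs2, Prkar1b and Pde8a were above it on some arrays but on no whole group. Detection depends on the probe, so a gene not detected here may still be transcribed at a low level.

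**Figure D1:**
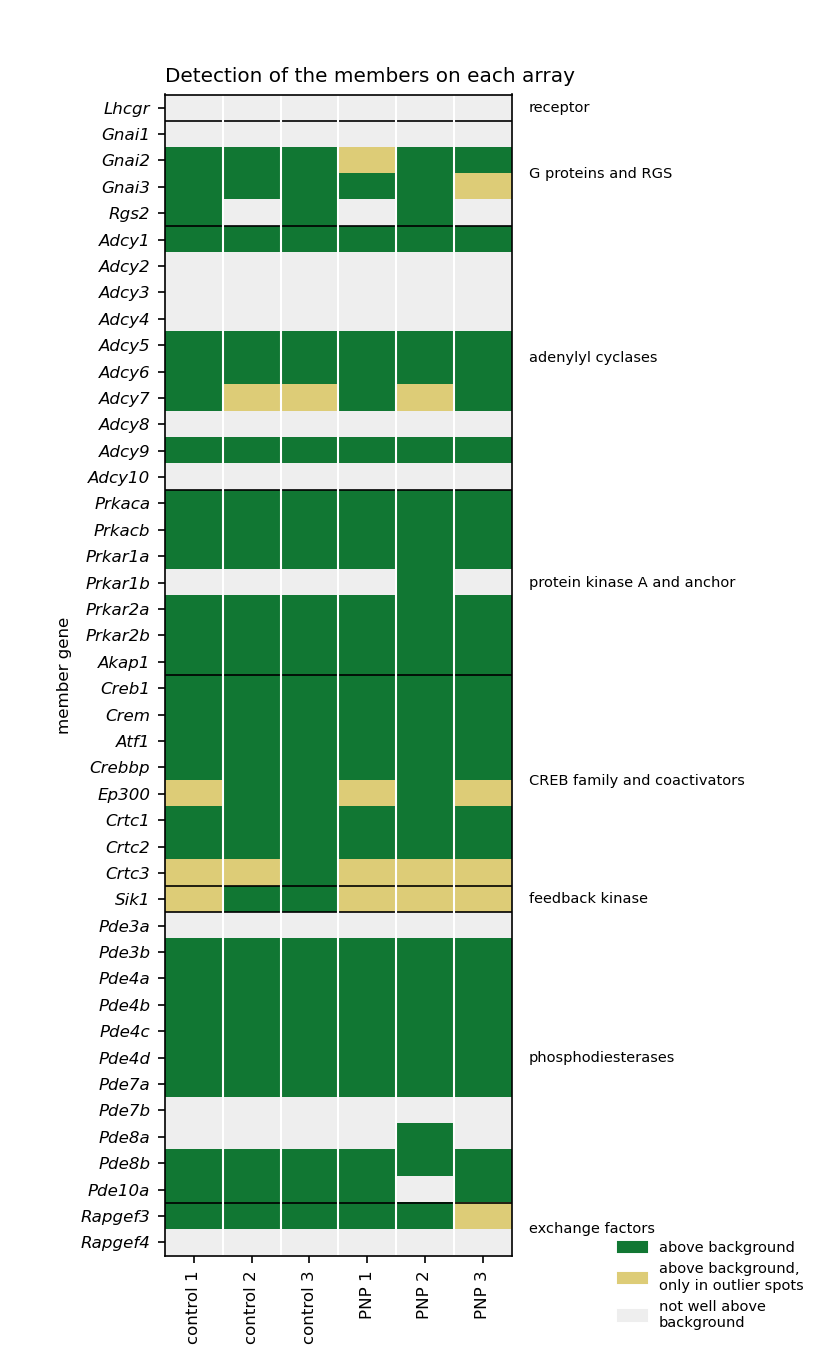
Detection of the 44 members (rows, by role) on each of the 6 arrays (columns), by whether any probe of the gene was well above background in a usable spot (dark), only in a spot marked as an outlier (pale yellow) or in none (grey). The PKA and CREB blocks are dark or pale yellow on every array apart from Prkar1b, with Ep300 and Crtc3 pale yellow on several arrays. In all, 10 members are grey throughout.

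No member passed the test for a difference with PNP. The groups could be compared for 27 members, those with a probe above background on the whole of 1 group and with at least 2 usable values in each. Adcy7, Ep300, Crtc3 and Sik1 were above background everywhere but had too many outlier spots for this comparison. The limma test, Benjamini-Hochberg adjusted over all 13138 genes compared, called 0 of the 27 members and 0% of all genes at 0.05. Adjusted p-values of the members ran from 0.740 to 0.998, and the smallest over all genes was 0.148. Without PNP array 1, 23 genes were called, none of them a member. At an unadjusted p under 0.05 there was 1 member (3.70%), Pde4c, beside 856 genes (6.52%). Counted by probe, the test called 0 of 39 member probes and 0% of 27222 probes, with 3 member probes and 6.99% of all probes at an unadjusted p under 0.05.

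The sizes of the differences were small. Levels are given as scaled log2 signal, the log2 of the processed signal minus its 75th percentile on the same array, and a difference is the PNP mean minus the control mean on that scale. The members' differences ran from -0.24 (Gnai2) to 0.58 (Pde4c), with a median of 0.02 beside 0.04 for all genes. The median size of a difference, whatever its sign, was 0.10 for members and for all genes alike. Of the 27 members, 13 differed by less than 0.1. The 95% confidence interval lay within a 1.5-fold change in either direction for 21 members (77.8%, beside 84.4% of all genes) and within a 2-fold change for 26. The exception at 2-fold was Pde4c.

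Direction among the members depended on how arrays were scaled and on whether outlier spots were kept. As reported, 15 members were higher and 12 lower with PNP, so 55.6% were higher, beside 63.0% of all genes. With arrays set to equal medians, 33.3% of members and 44.2% of genes were higher. With quantile normalization these were 44.4% and 53.7%. Keeping outlier spots, with the scaling unchanged, gave 45.2% and 60.4%. The authors' deposited table, in which outlier spots were also kept, covered 31 members and 15046 genes and gave 38.7% and 51.5%. Median scaling moved the median of all genes from 0.04 to -0.02.

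The PNP values lay wholly outside the control range for 4 members (14.8%), beside 13.4% of all genes. Gnai2, Prkaca and Prkar2a lay below the controls, as did 3.75% of genes, and Rapgef3 above, as did 9.66%. Gnai2, Prkar2a and Rapgef3 had a value left out as an outlier spot. Such separation was seen in 24.1% of genes with a missing value and in 11.5% of genes with all 6.

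**Figure D2:**
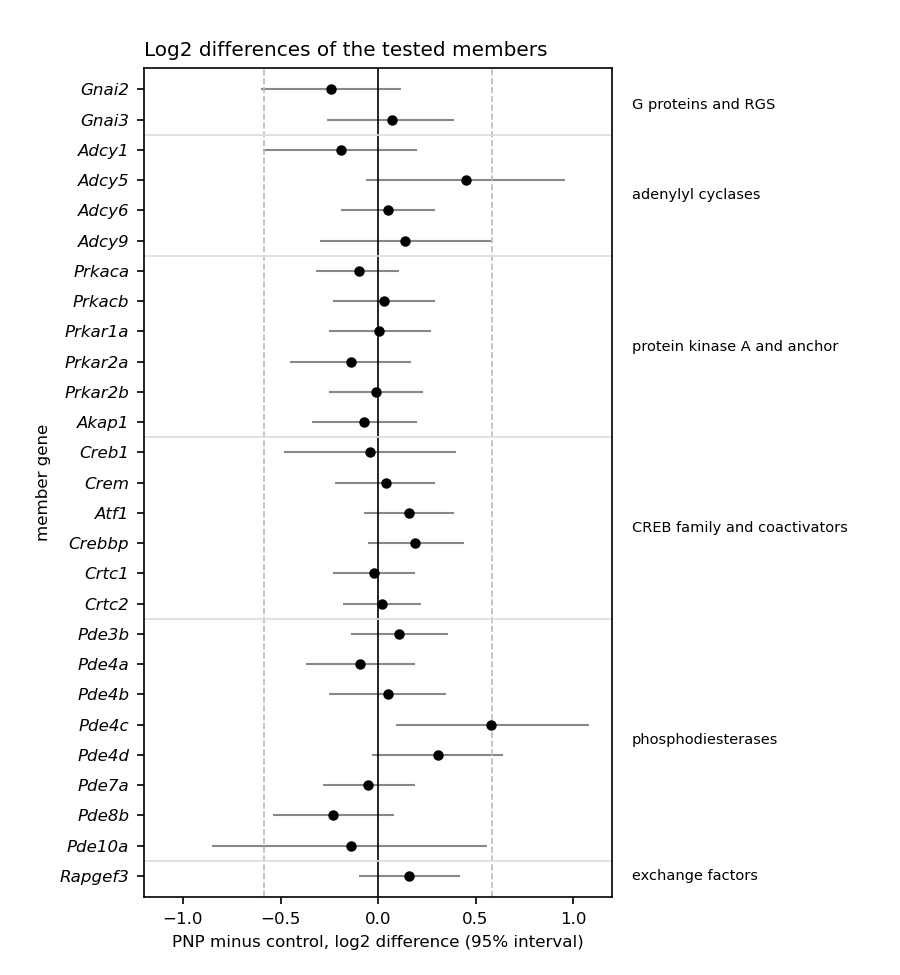
PNP minus control difference in scaled log2 signal (x axis) for the 27 compared members, by role, with 95% confidence intervals from limma as bars and dashed lines at a 1.5-fold change. Only the interval of Pde4c does not reach 0, its adjusted p being 0.740.

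At the receptor, the only probe for Lhcgr, the luteinizing hormone receptor, was at background in both groups. Its scaled log2 signal was -7.68, -7.78 and -7.73 on control arrays 1 to 3, and -7.29, -7.61 and -7.66 on PNP arrays 1 to 3. Values this low carry no level, and none of the 6 spots was well above background.

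Of the G proteins and their regulator, Gnai2 and Gnai3, alpha subunits that inhibit adenylyl cyclase, could be compared. Gnai2 stood at 2.05, 1.62 and 1.67 in the controls and at 1.49 and 1.60 on PNP arrays 2 and 3. The PNP values were below all 3 controls, and control 1 stood apart above the other 2. The difference was -0.24 (SE 0.15, 95% interval -0.60 to 0.12, adjusted p 0.878), and it was -0.10 without control array 1. Gnai3 differed by 0.07. The left-out outlier spot of Gnai2 on PNP array 1 read 1.53, also below the controls. A second, dimmer Gnai2 probe with several outlier spots differed by -0.06 when they were kept, and its groups overlapped. Rgs2, which shortens G protein signals and is itself induced by cAMP in many cells, hovered at the detection limit: -5.29, -6.07 and -5.19 in the controls, and -5.84, -5.31 and -5.34 with PNP. It was above background on control arrays 1 and 3 and PNP array 2, and the groups overlapped.

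Adenylyl cyclases make cAMP from ATP, and the isoforms differ in their control by calcium and G proteins. Of the 10, Adcy1, Adcy5, Adcy6, Adcy7 and Adcy9 were above background on all arrays, and 4 were compared. Adcy6, an isoform inhibited by calcium and Gi, stood at 1.84, 1.79 and 1.73 in the controls and at 1.97, 1.84 and 1.70 with PNP. Its difference of 0.05 (SE 0.10, adjusted p 0.961) was within the spread of either group. A second, dimmer Adcy6 probe differed by -0.15 (95% interval -0.40 to 0.10), with overlapping groups. Adcy5, the closest relative of Adcy6, stood at -4.56, -4.54 and -4.84 in the controls and at -4.65, -3.70 and -4.24 with PNP. PNP arrays 2 and 3 were above every control, and PNP array 1 lay among them. The difference of 0.45 (SE 0.22, 95% interval -0.06 to 0.96, adjusted p 0.805) was 1.00 among arrays in odd slide columns and 0.10 among those in even columns. It was 0.20 without PNP array 2 and -0.0045 with slide row as a block, a comparison that rests on PNP array 1. Adcy1, a calcium-stimulated form, differed by -0.19 and Adcy9 by 0.14. Adcy7 was not compared. With its outlier spots kept it averaged 0.17 ± 0.12 in the controls and 0.0078 ± 0.28 with PNP (SD, n = 3 each).

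PKA is built from paired catalytic and regulatory subunits, and 6 of the 7 genes for its subunits and anchor were above background on all arrays. Their differences lay between -0.14 and 0.03 with outlier spots left out, and reached -0.34 (Prkar2a) and 0.22 (Prkar1a, on another probe) with them kept. Prkaca, the main catalytic subunit, stood at 2.07, 2.04 and 2.11 in the controls and at 2.01, 2.04 and 1.87 with PNP. The PNP values were below the controls, with PNP array 2 equal to control 2 at the decimals shown. The difference was -0.10 (SE 0.09, 95% interval -0.32 to 0.11, adjusted p 0.926). A second, dimmer Prkaca probe differed by -0.32, with overlapping groups. Prkar1a, the regulatory subunit that restrains PKA and whose loss causes Carney complex, stood at 2.99, 2.80 and 2.77 in the controls and at 3.01, 2.85 and 2.72 with PNP. The groups overlapped, with a difference of 0.0061 (SE 0.11, 95% interval -0.25 to 0.27, adjusted p 0.998). A second Prkar1a probe, marked as an outlier on all 3 PNP arrays, read 2.98, 2.80 and 2.94 in the controls and 3.19, 3.03 and 3.17 with PNP. Every PNP value of that probe was above every control, with a difference of 0.22 (adjusted p 0.845 with outlier spots kept).

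Of the other PKA genes, Prkacb, the second catalytic subunit, differed by 0.03, and the type II regulatory subunits Prkar2a and Prkar2b by -0.14 and -0.01. Prkar2a rested on 2 usable values a group, 0.89 and 0.88 against 0.82 and 0.66. With its outlier spots kept (1.03 on control array 2 and 0.29 on PNP array 1) the difference was -0.34 (95% interval -0.67 to -0.01, unadjusted p 0.0432, adjusted p 0.836), again with PNP below the controls. A second, dimmer Prkar2a probe differed by -0.24, with overlapping groups. Akap1, which anchors PKA to mitochondria, differed by -0.07. Prkar1b was above background on PNP array 2 alone, at -3.53, with -7.18 to -6.13 on the other arrays.

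CREB binds the cAMP response element, TGACGTCA, and its core TGACG, so stretches of member promoters that hold these letters are shown. RefSeq promoter windows (GRCm38.p6, 250 bases before to 50 after a start) were at hand for 35 members, in 63 windows, and both motifs were searched on both strands. The full element was in 2 windows (3.17%, beside 1.79% of 32851 windows), which overlap and share 1 copy, that of Prkar1a. The core, which the full element contains, was in 17 windows (27.0%, beside 20.8%) of 15 genes (42.9% of the 35 members, beside 23.0% of all genes with a window; genes can have several windows). The 4 stretches below are those of a PKA subunit, a G protein regulator and a pair of phosphodiesterases, each 5′ to 3′ on the gene's strand, with the motif or its reverse complement CGTCA in capitals. A match is a description of the letters and was not measured as a binding site.
Prkar1a, chr11:109650884-109650923 (+), 41 bases before the start: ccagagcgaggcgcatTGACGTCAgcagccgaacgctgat
Rgs2, chr1:144004196-144004232 (-), 62 bases before the start: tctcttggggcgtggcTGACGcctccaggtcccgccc
Pde4b, chr4:102421505-102421541 (+), 29 bases before the start: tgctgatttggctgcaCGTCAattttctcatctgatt
Pde8a, chr7:81213165-81213201 (+), 79 bases before the start: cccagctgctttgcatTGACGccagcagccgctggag

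The CREB family and its coactivators were above background on every array, 8 of 8, and 6 were compared, with differences from -0.04 to 0.19. Crebbp, the acetyltransferase that CREB recruits, stood at 3.76, 3.67 and 3.50 in the controls and at 3.94, 3.82 and 3.76 with PNP. PNP arrays 1 and 2 were above all controls, and PNP array 3 met control 1. The difference was 0.19 (SE 0.11, 95% interval -0.05 to 0.44, adjusted p 0.839), and it was -0.0057 with quantile normalization. A second, dimmer Crebbp probe with several outlier spots went the other way, by -0.21 when they were kept. Its PNP arrays 2 and 3 were below all controls and PNP array 1 was not. Crem, whose short ICER forms repress cAMP targets, stood at -2.52, -2.71 and -2.64 in the controls and at -2.53, -2.75 and -2.47 with PNP. Its groups overlapped, with a difference of 0.04 (SE 0.11, adjusted p 0.972). The other Crem probes, all dimmer, differed by 0.15, 0.24 and -0.05, also with overlapping groups. The array does not tell ICER from the other Crem transcripts here, since the probes' positions were not used.

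Atf1, a relative that pairs with CREB, differed by 0.16. Crtc1 and Crtc2, coactivators that enter the nucleus when cAMP rises, differed by -0.02 and 0.02. A second, dimmer Crtc2 probe differed by 0.24, with all PNP values above all controls. Its 95% interval was 0.0015 to 0.47 (limma unadjusted p 0.0488, adjusted p over probes 0.714). Ep300 and Crtc3, left out of the comparison for outlier spots, differed by -0.12 and -0.14 with those spots kept (-0.11 and -0.13 from the authors' deposited table, adjusted p 0.996 for each). Sik1, a kinase that cAMP induces and that keeps CRTC proteins out of the nucleus, was in the same position. Its values with outlier spots kept were -0.69, -0.53 and -0.69 in the controls and -0.95, -0.63 and -0.98 with PNP. PNP arrays 1 and 3 were below all controls and PNP array 2 was among them, and the difference was -0.22.

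Creb1 itself had 4 probes, which did not behave alike. The one used for the gene stood at -2.69, -2.77 and -2.53 in the controls and at -3.07, -2.26 and -2.77 with PNP. These overlapped, with a difference of -0.04 (SE 0.19, 95% interval -0.48 to 0.40, adjusted p 0.983). A second probe differed by -0.16, and the brightest, in which some spots were outliers, by -0.11 with all spots kept. The mean over the 3 tested probes, which takes in the dimmest, differed by -0.38 (95% interval -0.64 to -0.12, unadjusted p 0.00991, adjusted p 0.880), with PNP below the controls. The dimmest probe (-0.94) was compared only because of its control signals, so the size and p-value of this mean are not well set. With slide row as a block the difference of the probe used was -0.41.

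The dimmest Creb1 probe, A_55_P2114427, is described because of its values, which were seen first. It stood at -5.17, -4.77 and -4.91 in the controls, above background on all 3 arrays. With PNP it stood at -6.14, -5.67 and -5.86, above background on none. The groups were clear of each other, with means of -4.95 ± 0.20 and -5.89 ± 0.24 (SD, n = 3 each). A cautious estimate set the dim side to the lowest signal above background on each PNP array, or the probe's own where higher. By it the controls were 1.38-fold higher, a ratio of means without an interval. The adjusted p over 27222 probes was 0.534. The probe was compared at all because of its control signals, so the size of the difference is not well set. It was -0.34 with normexp background correction and -1.19 with slide row as a block. This pattern of detection was shared by 21 of 33767 named probes (0.0622%), and the opposite one by 4 (0.0118%). What transcript part the probe covers was not analysed here.

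**Figure D3:**
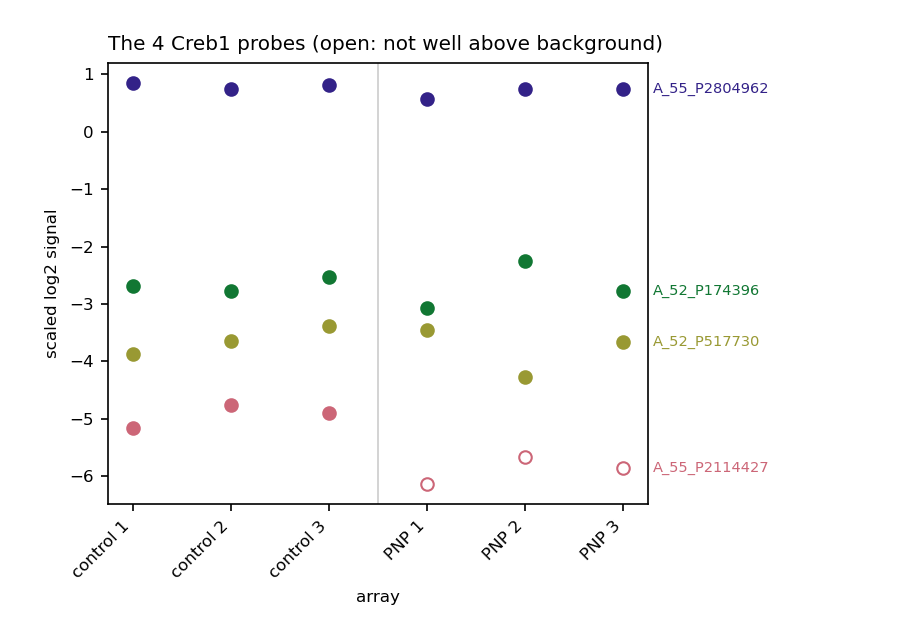
Scaled log2 signal (y axis) of the 4 Creb1 probes on each of the 6 arrays (x axis), with outlier spots kept and open circles for spots not well above background. Only the dimmest probe has all 3 PNP arrays open and below all 3 controls, and levels compare within a probe, not between probes.

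Phosphodiesterases end the signal by hydrolysing cAMP, and 4 of the 8 compared were higher and 4 lower, between -0.23 and 0.58. Pde4c, of the cAMP-specific PDE4 family, stood at -3.66, -3.97 and -3.67 in the controls and at -3.71, -2.99 and -2.86 with PNP. PNP arrays 2 and 3 were above every control and PNP array 1 was not. The difference was 0.58 (SE 0.22, 95% interval 0.09 to 1.08, unadjusted p 0.0266, adjusted p 0.740). Without PNP array 1 it was 0.84 (adjusted p 0.163), and with slide row as a block it was 0.06. A brighter Pde4c probe with several outlier spots differed by 0.18 when they were kept.

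Pde4d, another PDE4, stood at -1.66, -1.92 and -1.87 in the controls and at -1.78, -1.25 and -1.49 with PNP. Here too PNP arrays 2 and 3 exceeded the controls and PNP array 1 lay among them, with a difference of 0.31 (SE 0.15, 95% interval -0.03 to 0.64, adjusted p 0.795). With the slide row as a block it was 0.04. Pde4b, the PDE4 that cAMP induces in many cell types, stood at -1.41, -1.09 and -1.55 in the controls and at -1.26, -1.37 and -1.27 with PNP. All 3 PNP values fell inside the control range, with a difference of 0.05 (SE 0.13, adjusted p 0.967). A brighter Pde4b probe, marked as an outlier on every array, differed by -0.14 with those spots kept, and its groups overlapped. Pde4a differed by -0.09.

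Pde8b, a high-affinity PDE known to restrain steroid output in Leydig and adrenal cells, stood at -2.95, -3.17 and -3.19 in the controls and at -3.31, -3.12 and -3.57 with PNP. PNP array 2 lay among the controls and the other PNP arrays below them, with a difference of -0.23 (SE 0.14, 95% interval -0.54 to 0.08, adjusted p 0.866). It was -0.11 without PNP array 3. A second Pde8b probe differed by 0.08, and the mean of both by -0.07. Its partner Pde8a was above background on PNP array 2 alone, at -4.41, and stood between -7.84 and -7.21 elsewhere.

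Pde3b, a PDE that cGMP inhibits, stood at 0.97, 1.08 and 1.22 in the controls and at 1.29, 1.25 and 1.07 with PNP. The groups overlapped, with a difference of 0.11 (SE 0.11, adjusted p 0.943). Pde7a differed by -0.05 and Pde10a by -0.14. Pde10a was above background on every array but PNP array 2, where it read -5.53, so the PNP spread was 0.71 (SD, n = 3) against 0.17 in the controls.

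PKA is not the only cAMP receptor, since the exchange factors Rapgef3 and Rapgef4 (EPAC1 and EPAC2) activate Rap proteins when cAMP binds. Rapgef3 stood at 1.64, 1.61 and 1.51 in the controls and at 1.82 and 1.67 on PNP arrays 1 and 2. Both were above the controls, as was the outlier spot of PNP array 3 at 1.71. The difference was 0.16 (SE 0.11, 95% interval -0.10 to 0.42, adjusted p 0.900), and Rapgef4 was not detected.

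**Figure D4:**
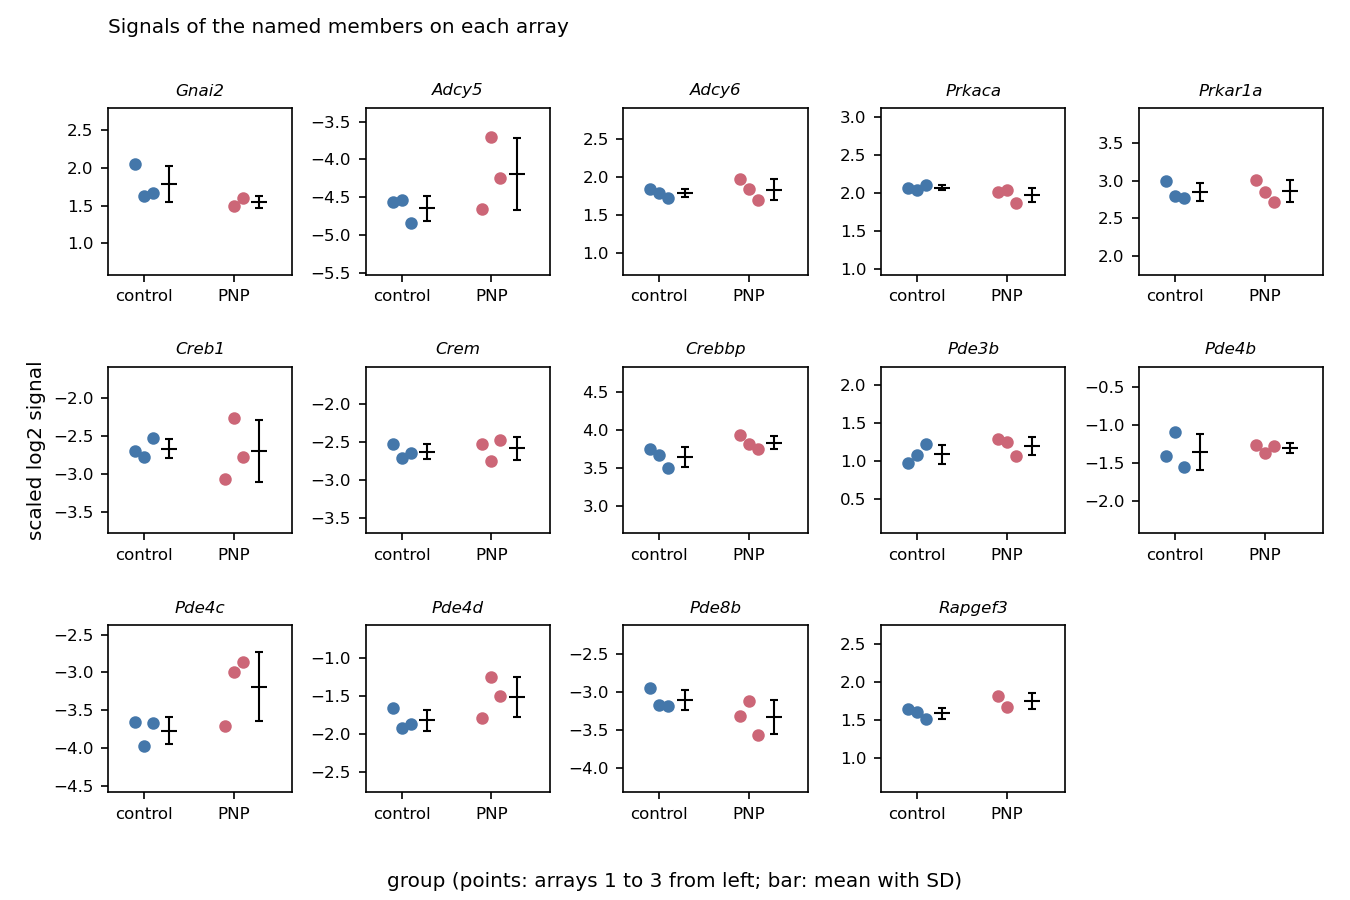
Scaled log2 signal (y axis, of equal span but different position in each panel) of the 14 named members that were compared, with arrays 1 to 3 of each group as points and the mean with its SD as the bar. Outlier spots are left out. In Adcy5, Pde4c and Pde4d the PNP arrays spread more than the controls, with PNP array 1 beside the control points.

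The arrays did not contribute equally. Of the 23 members with 6 usable values, PNP arrays 1 to 3 held the highest value for 7, 5 and 5 and the lowest for 3, 5 and 8, so PNP samples were at both ends. PNP array 2 was the single array above background for 3 member probes, and control array 2 for 1. Over all named probes such single-array signals numbered 323 on PNP array 2 and 257 on PNP array 3, beside 58 to 158 on the others. Their part in the members' values was not tested. Outlier spots were more frequent on the PNP arrays, as given above, and their part was not tested either.

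**Figure D5:**
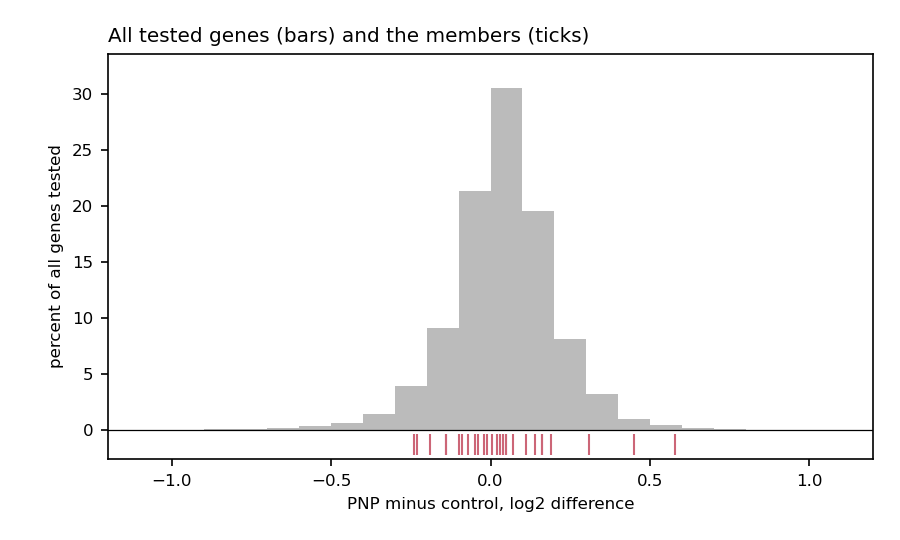
Percent of the 13138 compared genes (bars, y axis) by PNP minus control difference in scaled log2 signal (x axis), with the 27 compared members as ticks below the bars. The members lie across the middle of the distribution, with medians of 0.02 for members and 0.04 for all genes, and Pde4c is the tick farthest to the right.

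Of 89 further genes of the cAMP pathway, among them other receptors, G protein subunits, anchors and CREB targets, 88 were on the array and 61 were compared. The limma test called 0 of them, with a smallest adjusted p of 0.740. An unadjusted p under 0.05 was reached by 4 (6.56%, beside 6.52% of genes), 2 higher and 2 lower. Akap11, which is among the lower genes and among the separate groups counted below, was compared only because of its control signals. Of the 61, 46 (75.4%) were higher, beside 63.0% of all genes, and the median difference was 0.10 beside 0.04. With median scaling 62.3% were higher beside 44.2% of genes. The authors' deposited table, with outlier spots kept and 72 of the further genes compared, gave 59.7% beside 51.5%. Differences ran from -0.33 to 0.38. The groups were separate for 14 (23.0%, beside 13.4% of genes). Among these, Akap10, Nfil3, Creb5, Nr4a1 and Rap1b had a missing value. Over all genes, separation was seen in 24.1% with a missing value and in 11.5% with all 6.

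Pde2a, a phosphodiesterase that cGMP stimulates, stood at -1.49, -1.39 and -1.58 in the controls and at -1.11, -1.13 and -1.08 with PNP. All PNP arrays were above all controls, with a difference of 0.38 (SE 0.09, unadjusted p 0.00339, adjusted p 0.740). Ppp1r1b, a protein phosphatase inhibitor that PKA switches on, differed by 0.37 with overlapping groups. The PKA anchor Akap11 differed by -0.33, but it was above background on all 3 control arrays and on only 1 PNP array, so the size is not well set. Akap10, another anchor, differed by -0.27, with PNP arrays 2 and 3 below the controls and PNP array 1 left out as an outlier.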

How the data were processed

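TM3 RNA was measured on 6 Agilent 1-colour arrays, 3 control and 3 PNP. The authors deposited spot intensity from Agilent Feature Extraction, version 10.7 per the submitters' processing notes and 11.5.1.1 per the file headers, with background subtraction and detrending. The labels give Cy3, while the files' signal columns are those of the red channel. The authors also deposited a table of normalized log2 values, used as an alternative: its columns each have a median of 8.27 and, once sorted, differ by at most 0.000955.

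From the intensities, log2 signals were taken minus the 75th percentile of the 59305 non-control spots of each array. Outlier spots were left out and spots of a probe averaged. A probe was above background where at least 0.5 of its spots were. Genes were compared through their brightest eligible probe with limma 3.58.1 (R 4.3.3), two-sided, adjusted over all genes; the procedure was tested on simulated data. All samples entered 1 fit without a block, since same-numbered samples did not deviate together (correlations -0.31, -0.22 and -0.03). A probe's gene came from its accession through a RefSeq list (33767 of 56605 probes), and array names can be old. Depth does not apply to arrays, and their number limits the precision.

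Members and gene lists were chosen with earlier results of these data known. Values on each array are given for the smallest p and the brightest probe of each role, the 3 smallest p-values in each direction, and Lhcgr, Prkaca, Prkar1a, Creb1, Crem, Pde4b, Pde8a, Pde8b, Rgs2 and Sik1. Prkar1b, Prkar2a, Pde10a and the dim Creb1 probe were added after their values were seen. Alternatives were other scalings, background corrections, filters, probe rules, blocks, array weights and leaving out each array.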

Additional observations from a re-analysis of the deposited data

How the results depend on the processing

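Under all 18 alternatives, limma called 0 members and 0 of the other pathway genes. The smallest adjusted p of a member was 0.163 (Pde4c without PNP replicate 1) and 0.187 with array quality weights. With the replicate block, members called stayed at 0, the smallest adjusted p of a member was 0.984 and the median difference 0.02; 605 genes had an unadjusted p under 0.05 in place of 856. Over all genes, leaving out an array called 0 to 23 genes, the 23 without PNP replicate 1.

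The members' median difference was -0.04 with scaling on each array's median. With no filter on dim probes, which adds members at background, 10 members had separate groups (25.0%, beside 26.0% of genes). Leaving out an array gave 3 to 8: 8 without PNP replicate 1 (32.0%, beside 22.5% of genes) and 7 without PNP replicate 2 (29.2%, beside 33.5%).

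Some named members changed sign, most of them with a reported difference near 0, but also Adcy5 (0.45 as reported) and Crebbp (0.19). Scaling on the median gave -0.01 for Adcy6, -0.05 for Prkar1a, -0.02 for Crem and -0.01 for Pde4b. Quantile normalization gave -0.10 for Prkar1a, -0.0075 for Crem and -0.0057 for Crebbp. Background correction by normexp gave -0.04 for Crem. The authors' values gave -0.0079 for Crem and -0.13 for Pde4b. Keeping outlier spots gave -0.14 for Pde4b. With those spots kept, as in the authors' values, Pde4b was read from a brighter probe in which every spot was an outlier. The probe used otherwise differed by 0.05 with or without outlier spots. Averaging probes gave -0.05 for Adcy6, the mean taking in a second probe that differed by -0.15. Slide column as a block gave 0.10 for Creb1 and -0.03 for Pde4b, and slide row gave -0.0045 for Adcy5. Array weights gave -0.01 for Adcy6 and -0.06 for Prkar1a. Leaving out an array gave -0.02 to 0.12 for Adcy6, -0.07 to 0.08 for Prkar1a, -0.02 to 0.12 for Crem, -0.26 to 0.14 for Creb1 and -0.05 to 0.18 for Pde4b. Where the probe stayed the same, the cause was not tested. Pde4c, Pde4d, Pde8b, Prkaca and Pde3b kept their sign in all 18, and Gnai2 and Rapgef3 in the 16 that gave them a value.

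The dim Creb1 probe, an alternative chosen after seeing the data, had an adjusted p from 0.137 to 1.00. Its difference ran from -1.19 (slide row as a block) to -0.34 (normexp). Normexp on the mean spot signal was not run, because the files used here hold the median alone; normexp on the median was chosen after seeing the files. Signals near background limit Lhcgr, Rgs2, Pde8a and Prkar1b.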
